A study of Mus musculus with 5 samples.

Results

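The Ly49 receptors are described here in natural killer (NK) cells of mouse spleen after CRISPR editing, in 5 libraries of total RNA: 3 labelled Fli1 KO, edited with a guide against Fli1, and 2 labelled NTC, the control of that editing. The 9 genes Klra1 and Klra3 to Klra10 were taken by symbol. All 9 were found among the 56691 genes of the deposited count table, which lists 14 genes with a Klra name. All 9 had enough counts to be tested, and all 30580 tested genes entered the fit. The labels give no mouse strain, age, culture conditions or guide position. They do not say whether libraries came from separate animals, so any p below reflects the spread among the libraries at hand. The Fli1 protein is an ETS-family transcription factor.

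Ly49 receptors are lectin-like dimers on the surface of NK cells. The inhibitory ones bind MHC class I on neighbouring cells and recruit the phosphatase SHP-1 through a tyrosine motif (ITIM) near the start of the protein, which restrains killing. The activating ones lack that motif and pair instead with the adaptor DAP12, the product of Tyrobp. Each NK cell switches on its own subset of the genes, so a bulk level blends the share of cells that express a gene with the amount of RNA in each. Fewer expressing cells and less RNA per cell cannot be told apart in these libraries. The family varies between strains, and the sequences and gene models used here are those of the C57BL/6J reference.

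The first 60 coding bases of the 9 genes are shown because they hold the codon of the ITIM tyrosine and because they show how alike the genes are. They come from GENCODE release M21 transcripts (GRCm38, minus strand of chromosome 6), 5′ to 3′, and capitals mark bases that differ from the most frequent base of the 9 genes at that position. At position 11, where a and c stand in 4 genes each, a was taken as that base. The 7 genes known as inhibitory stand first and the 2 known as activating, Klra4 and Klra8, last.
Klra1: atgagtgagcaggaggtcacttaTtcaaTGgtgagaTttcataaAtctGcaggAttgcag
Klra3: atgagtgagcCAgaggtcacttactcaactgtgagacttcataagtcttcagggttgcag
Klra5: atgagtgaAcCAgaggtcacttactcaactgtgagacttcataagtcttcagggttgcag
Klra6: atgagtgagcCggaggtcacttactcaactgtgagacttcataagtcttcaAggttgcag
Klra7: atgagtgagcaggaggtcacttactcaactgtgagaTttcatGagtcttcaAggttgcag
Klra9: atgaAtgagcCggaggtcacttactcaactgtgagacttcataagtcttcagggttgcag
Klra10: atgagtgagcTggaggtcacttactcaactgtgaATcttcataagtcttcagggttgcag
Klra4: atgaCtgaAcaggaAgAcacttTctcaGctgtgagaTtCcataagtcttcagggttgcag
Klra8: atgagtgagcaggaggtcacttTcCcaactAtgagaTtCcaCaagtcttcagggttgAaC

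Bases 22 to 24 were TAC or, in Klra1, TAT in the inhibitory genes, both of them codons for tyrosine. They were TTC in Klra4 and Klra8, which is not a tyrosine codon. Counted from 1 at the first coding base, this is the substitution A23T, from the most frequent base, in both activating genes.

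Such likeness bears on the counts, since a read that matches several genes may be dropped or assigned to one of them, and the sources used here do not say how the authors treated such reads. Sharing was measured as the percentage of 50-base windows of a gene's annotated transcripts that occur in those of another gene. The read length is not given either, so longer windows were also tried. Klra10 shared most, 39.8% of its windows, followed by Klra8 with 33.1%, Klra9 with 31.5% and Klra3 with 20.7%. Klra7 shared 12.3%, all of it with the pseudogene Klra13-ps. Klra4, Klra1, Klra6 and Klra5 shared 4.68%, 2.98%, 2.62% and 0.655%, so their counts are the least exposed to reads of other family members. With windows of 75 bases the shares were 19.7% for Klra8, 14.4% for Klra10 and 12.1% for Klra9, and with windows of 150 bases Klra8 was the only member with any, at 6.03%. Its partner there is the pseudogene Klra14-ps, with which it shares a run of 195 identical bases. The longest run between 2 members was 121 bases, between Klra3 and Klra10. Sharing also crossed between the kinds, since the activating Klra8 shares a run of 106 bases and 10.7% of its 50-base windows with the inhibitory Klra9. It also shares 5.05% with Klra10 and 2.83% with Klra3, and the activating Klra4 shares 4.26% with Klra1.

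**Figure D1:**
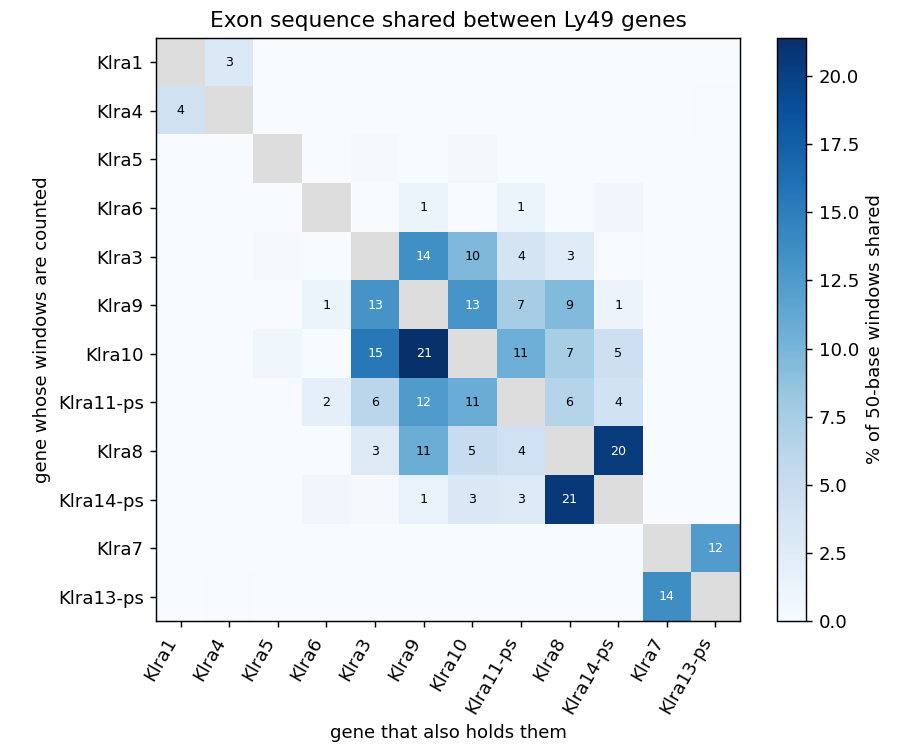
Percentage of the 50-base windows of each gene (rows) that also occur in another gene (columns), for the 9 members and 3 Ly49 pseudogenes, with values of at least 1% printed. Klra3, Klra8, Klra9, Klra10 and Klra11-ps all share windows with each other, Klra8 and Klra14-ps share 20.4% of Klra8's windows and Klra7 shares only with Klra13-ps, while Klra1, Klra4, Klra5 and Klra6 are nearly free of shared windows. Klra2 and Klra17 shared none and are left out.

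Libraries held 5487027, 5643791 and 5164623 counts in Fli1 KO and 5445718 and 4718390 in NTC, of which 4132 to 5067 in Fli1 KO and 3145 and 4888 in NTC lay on the 9 members. Levels are in CPM (counts-per-million, TMM-scaled). Fli1 RNA was at 389.6, 320.2 and 361 CPM in Fli1 KO 1 to 3, against 322 and 279 CPM in NTC 1 and NTC 2, and the groups overlapped. Small edits can leave a transcript that is still counted, so this level is no check of the labels, on which the directions below rest. All 9 NK markers examined lay over 3 times the background density, which is the CPM per kb on 1453 olfactory and vomeronasal receptor genes that NK cells do not use (1.57 CPM per kb on average). No B cell, plasmacytoid dendritic or erythroid marker did, and 1 of 7 T cell markers (Trac) and 1 of 5 myeloid markers (Itgax, which NK cells also express) did. All of them had counts. NTC 2 stood apart from the other libraries in several of these lists. Summed NK markers were at 7330 to 10392 CPM in Fli1 KO and at 7483 CPM in NTC 1 and 5300 CPM in NTC 2. Single NK markers did not all follow the sum. Eomes was lowest in NTC 2 (278 CPM), but Klrk1 was highest there (394 CPM, against 323 to 327 CPM in Fli1 KO). Klrb1c in NTC 2 (254 CPM) lay within its Fli1 KO range (246 to 285 CPM). All 4 markers of type 1 innate lymphoid cells also lay over 3 times the background density. They summed to 230.1 to 239 CPM in Fli1 KO, 257 CPM in NTC 1 and 405 CPM in NTC 2.

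The 9 members differed more than 10-fold in level. Compared per kb of exon, Klra4 stood highest with a mean of 188 CPM per kb over the 5 libraries (range 148 to 211). Klra7 followed at 156 (129 to 176) and Klra8 at 155 (118 to 177). The ranges of these 3 overlapped, and Klra7 was above Klra8 in 3 of 5 libraries. Klra9 was at 66.4 CPM per kb, below Klra8 in all 5 libraries with ranges that did not overlap, and Klra1 at 33.0 stood below Klra9 in the same way. Klra3, at 24.7, was below Klra1 in all 5 libraries, although their ranges overlapped, and its range lay above that of Klra5. The lowest were Klra5 at 14.5, Klra10 at 13.6 and Klra6 at 11.01 CPM per kb, each overlapping the next, while the ranges of Klra5 and Klra6 lay apart. Even these were 9.22, 8.75 and 7.07 times the background density, against 121 times for Klra4. With all counts of a gene divided by its number of 75-base windows found in no other gene, Klra8 moved to first place. It stood at 206 CPM per kb of such windows with Klra4 at 201, a scale that overstates a gene whose shared reads were counted. Probe capture can favour one gene over another, which also limits comparisons of levels between genes.

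**Figure D2:**
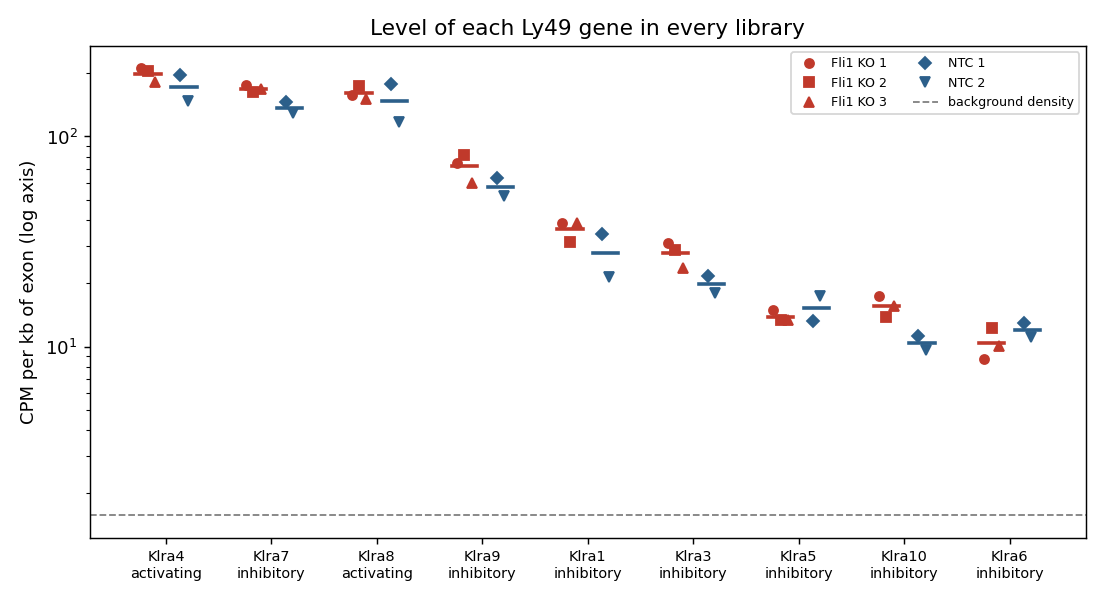
Level of each member in each library in CPM per kb of exon on a log axis, with Fli1 KO (red) left of NTC (blue), bars at the group means and a dashed line at the background density of 1.57 CPM per kb. Klra4, Klra7 and Klra8 form the top group, and all 9 members lie above the background in every library.

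The effect of Fli1 editing was tested for each gene with edgeR's quasi-likelihood test, with p-values adjusted over all tested genes by Benjamini and Hochberg's method and a call at an adjusted p under 0.05. Of the 9 members, 0 were called, and 0 by DESeq2 or limma-voom. Of all tested genes 0.546% were called, 0.458% higher and 0.0883% lower. At an unadjusted p under 0.05 there were 5 members (2 by DESeq2 and 4 by limma-voom), all 5 inhibitory and all with higher means in Fli1 KO, while 8.94% of all tested genes met that threshold, 5.23% with a higher and 3.71% with a lower level in Fli1 KO. Single libraries moved that count, to 0 members without NTC 2, 7 without NTC 1, 2 without Fli1 KO 1 and 3 when Fli1 KO 3 was left out. Scaling by library size only left 1 (Klra3). The 9 log2 fold changes (Fli1 KO over NTC) ran from −0.21 to 0.58 with a median of 0.30. The median was −0.018 over all tested genes and 0.091 over the 7675 with a mean of at least 20 CPM. Because the members were chosen as a family with shared sequence, they are not independent of each other.

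Among the inhibitory receptors, Klra7 encodes Ly49G, a receptor for H-2D class I molecules (ENSMUSG00000067599, chromosome 6, 130218605 to 130233322). It was at 223, 205 and 212 CPM in Fli1 KO 1 to 3, against 184 and 163 CPM in NTC 1 and NTC 2. All 3 Fli1 KO libraries lay above both NTC libraries. That held for 3 of the 9 members (Klra3, Klra7 and Klra10) and 11.9% of all tested genes, and the opposite order for 0 members and 13.7% of all tested genes. The means were 213 ± 8.63 CPM in Fli1 KO (SD, n = 3) and 174 ± 14.7 CPM in NTC (SD, n = 2). The difference came to a log2 fold change of 0.30 (SE 0.13, 95% interval 0.020 to 0.57, edgeR adjusted p = 0.507). The interval is for this gene alone and allows a change between 1.01-fold and 1.49-fold.

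Klra9 encodes Ly49I and Klra3 encodes Ly49C, both receptors for H-2K class I molecules. Klra9 (ENSMUSG00000033024, chromosome 6, 130178675 to 130193112) was at 96.0, 104 and 76.8 CPM in Fli1 KO 1 to 3, against 81.3 and 66.4 CPM in NTC 1 and NTC 2. Fli1 KO 3 lay below NTC 1, so the groups overlapped (log2 fold change 0.32, SE 0.15, 95% interval 0.0080 to 0.63, edgeR adjusted p = 0.540). Klra3 (ENSMUSG00000067591, chromosome 6, 130323289 to 130337574) was at 38.3, 35.8 and 29.2 CPM in Fli1 KO 1 to 3, against 26.9 and 22.4 CPM in NTC 1 and NTC 2. Here the groups did not overlap, with means of 34.5 ± 4.71 CPM in Fli1 KO (SD, n = 3) and 24.6 ± 3.20 CPM in NTC (SD, n = 2) and a log2 fold change of 0.48 (SE 0.17, 95% interval 0.14 to 0.83, edgeR adjusted p = 0.314). Klra10, which encodes Ly49J, is a low member that shares sequence with both (ENSMUSG00000072718, chromosome 6, 130269194 to 130281928), at 14.3, 11.4 and 12.9 CPM in Fli1 KO 1 to 3, against 9.19 and 7.94 CPM in NTC 1 and NTC 2. Its groups did not overlap either, and it had the largest of the 9 differences (log2 fold change 0.58, SE 0.21, 95% interval 0.14 to 1.02, edgeR adjusted p = 0.359). It rested on 71, 64 and 64 counts in Fli1 KO 1 to 3, against 53 and 38 counts in NTC 1 and NTC 2.

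Klra1 encodes Ly49A, a receptor for H-2D class I molecules (ENSMUSG00000079853, chromosome 6, 130363917 to 130386874). It was at 68.4, 55.6 and 68.5 CPM in Fli1 KO 1 to 3, against 60.9 and 37.8 CPM in NTC 1 and NTC 2. NTC 1 lay among the Fli1 KO libraries and NTC 2 below all of them, and the difference was a log2 fold change of 0.37 (SE 0.17, 95% interval 0.013 to 0.73, edgeR adjusted p = 0.534). Without NTC 2 its log2 fold change was 0.082 (edgeR adjusted p = 0.951), and without NTC 1 it was 0.78 (edgeR adjusted p = 0.00381), so 1 control library decides its size.

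The 2 remaining inhibitory members had lower means in Fli1 KO. Klra5 encodes Ly49E, an inhibitory receptor typical of fetal NK cells (ENSMUSG00000030173, chromosome 6, 129898996 to 129917650), and was at 20.8, 18.7 and 18.7 CPM in Fli1 KO 1 to 3, against 18.6 and 24.2 CPM in NTC 1 and NTC 2. NTC 2 was the highest library and the other 4 lay close together (log2 fold change −0.13, SE 0.17, 95% interval −0.50 to 0.23, edgeR adjusted p = 0.885). Without NTC 2 its log2 fold change was 0.071. Klra6 encodes Ly49F (ENSMUSG00000061769, chromosome 6, 130013033 to 130026954) and was at 9.68, 13.7 and 11.3 CPM in Fli1 KO 1 to 3, against 14.4 and 12.3 CPM in NTC 1 and NTC 2, with overlapping groups (log2 fold change −0.21, SE 0.20, 95% interval −0.63 to 0.22, edgeR adjusted p = 0.832). It rested on 48, 77 and 56 counts in Fli1 KO 1 to 3, against 83 and 59 counts in NTC 1 and NTC 2.

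Of the activating receptors, Klra4 encodes Ly49D, which pairs with DAP12 and binds H-2D class I molecules (ENSMUSG00000079852, chromosome 6, 130043731 to 130067271). It was at 263, 254 and 226 CPM in Fli1 KO 1 to 3, against 243 and 184 CPM in NTC 1 and NTC 2, with means of 248 ± 19.5 CPM in Fli1 KO (SD, n = 3) and 214 ± 41.9 CPM in NTC (SD, n = 2). NTC 1 lay among the Fli1 KO libraries and NTC 2 below them (log2 fold change 0.21, SE 0.15, 95% interval −0.090 to 0.51, edgeR adjusted p = 0.725). Its log2 fold change was 0.032 without NTC 2 and 0.45 without NTC 1. Klra8 encodes Ly49H, which recognises the m157 protein of mouse cytomegalovirus (ENSMUSG00000089727, chromosome 6, 130115226 to 130129898). It was at 185, 205 and 178 CPM in Fli1 KO 1 to 3, against 209 and 139 CPM in NTC 1 and NTC 2. The highest and the lowest library were both NTC (log2 fold change 0.12, SE 0.16, 95% interval −0.20 to 0.44, edgeR adjusted p = 0.884). Its direction turned without NTC 2 (log2 fold change −0.14) and when counts were scaled by library size only (−0.0097), a scaling under which the median over all tested genes was −0.14.

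**Figure D3:**
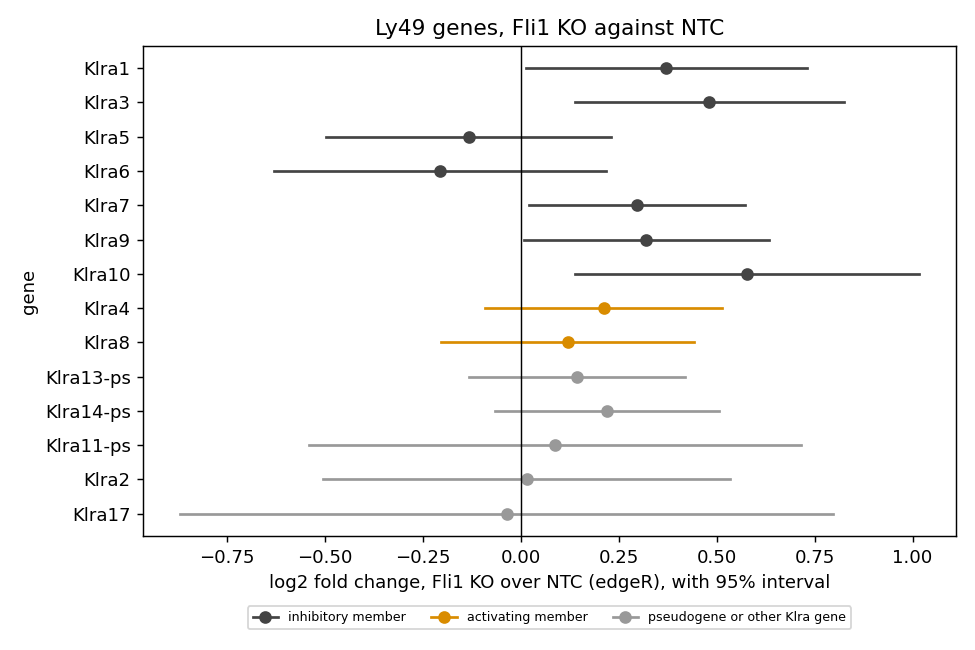
Log2 fold change of each Ly49 gene, Fli1 KO over NTC, from the edgeR fit (points) with its 95% interval (lines), for inhibitory members (dark), activating members (orange) and other Klra genes (grey). The intervals of Klra1, Klra3, Klra7, Klra9 and Klra10 lie above 0 before adjustment for the number of genes tested, and those of the other members include 0, as that of Klra8 does at −0.20 to 0.44.

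Inhibitory and activating members were also compared as sums, which reads moved from one member to another of the same kind leave as they are. Reads that were dropped, or that are shared between the kinds, can still move them. The 7 inhibitory members summed to 470.1, 445 and 429 CPM in Fli1 KO 1 to 3, against 395 and 334 CPM in NTC 1 and NTC 2. All Fli1 KO libraries lay above both NTC libraries, an order that 11.9% of all tested genes also had. The means were 448 ± 20.6 CPM in Fli1 KO (SD, n = 3) and 365 ± 43.0 CPM in NTC (SD, n = 2), a log2 ratio of 0.30. Klra7 alone held 213 and 174 CPM of these means, while Klra5 and Klra6 had lower means in Fli1 KO. The 2 activating members summed to 448, 459 and 403 CPM in Fli1 KO 1 to 3, against 452 and 323 CPM in NTC 1 and NTC 2. NTC 1 lay within the Fli1 KO range, and the means were 437 ± 29.3 CPM in Fli1 KO (SD, n = 3) and 388 ± 91.6 CPM in NTC (SD, n = 2), a log2 ratio of 0.17. No test was made of these sums. Without NTC 2 the ratios were 0.19 for inhibitory and −0.044 for activating members, and without NTC 1 they were 0.44 and 0.46. Summed NK markers were also lowest in NTC 2, though not every single marker was, as given above. Their part in these ratios was not tested.

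Activating members held about as many counts as all inhibitory ones together. Their share was 48.8%, 50.8% and 48.5% of member counts in Fli1 KO 1 to 3, against 53.4% and 49.1% in NTC 1 and NTC 2, so NTC 2 lay inside the Fli1 KO range. Within the family, Klra4 took between 27.1% and 28.7% of member counts over the 5 libraries and Klra7 between 21.7% and 25.4%. Klra5 took 3.69% in NTC 2 and between 2.07% and 2.26% in the other 4 libraries.

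**Figure D4:**
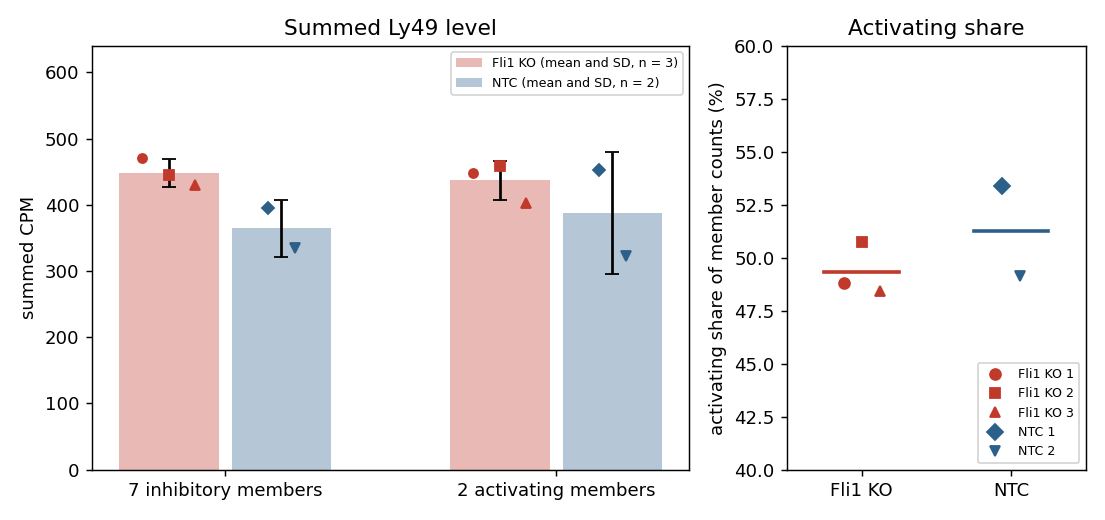
Left, summed CPM of the 7 inhibitory and 2 activating members, with bars and whiskers for the mean and SD of Fli1 KO (red, n = 3) and NTC (blue, n = 2) and a point for each library. Right, the activating share of member counts in percent on an axis that starts at 40, with lines at the group means. The inhibitory sums of Fli1 KO (429 to 470.1 CPM) lie above those of NTC (334 and 395 CPM), and the activating sums overlap.

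Genes were then linked where at least 5% of the 75-base windows of either were shared with the other, and linked genes were summed. Not every pair in a sum shares that much, as Klra3 shares 2.59% with Klra9 and 0.728% with Klra11-ps. Each sum was fitted as 1 gene among all others. Klra3, Klra9, Klra10 and Klra11-ps together were at 153, 157 and 123 CPM in Fli1 KO 1 to 3, against 121 and 101 CPM in NTC 1 and NTC 2 (log2 fold change 0.37, SE 0.14, edgeR adjusted p = 0.405). The lowest Fli1 KO library was close to the higher NTC library, and the groups did not overlap, as in 11.9% of all tested genes with Fli1 KO above. Klra7 with Klra13-ps was at 404, 382 and 386 CPM in Fli1 KO 1 to 3, against 356 and 312 CPM in NTC 1 and NTC 2 (log2 fold change 0.23, SE 0.14, edgeR adjusted p = 0.666). Klra8 with Klra14-ps was at 267, 299 and 259.9 CPM in Fli1 KO 1 to 3, against 288 and 207 CPM in NTC 1 and NTC 2 (log2 fold change 0.15, SE 0.15, edgeR adjusted p = 0.832). None of the 3 sums was called.

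The pseudogenes among the other Klra genes were not all near background, though part of their counts may be reads of members. Klra13-ps shares 13.7% of its 50-base windows with Klra7, and Klra14-ps 20.7% with Klra8. Klra13-ps was at 182, 177 and 174 CPM in Fli1 KO 1 to 3, against 172 and 149 CPM in NTC 1 and NTC 2 (log2 fold change 0.14, SE 0.13, edgeR adjusted p = 0.813), 106 times the background density. Klra14-ps was at 81.5, 94.7 and 82.2 CPM in Fli1 KO 1 to 3, against 79.2 and 68.5 CPM in NTC 1 and NTC 2 (log2 fold change 0.22, SE 0.14, edgeR adjusted p = 0.685). Their groups did not overlap, with Fli1 KO above, as in 11.9% of all tested genes. Klra11-ps, Klra2 and Klra17 were at means of 4.32, 6.42 and 2.93 CPM, or 3.40, 2.15 and 1.53 times background. Klra2 and Klra17 encode Ly49B and Ly49Q, which are known from myeloid cells and plasmacytoid dendritic cells.

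**Figure D5:**
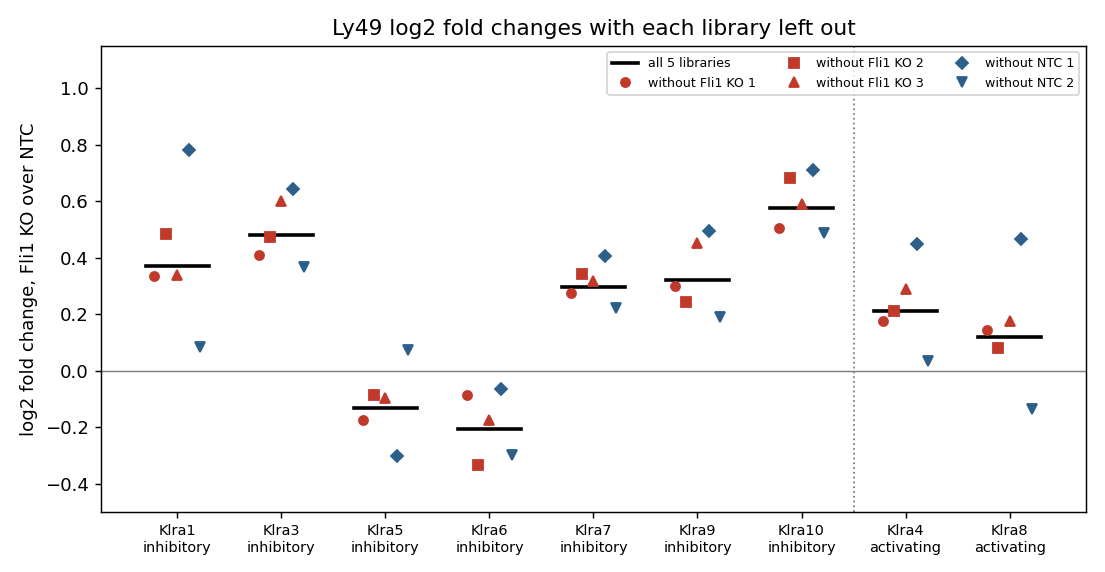
Log2 fold change of each member (Fli1 KO over NTC) with all 5 libraries (black line) and with each library left out (red, a Fli1 KO library; blue, an NTC library), inhibitory members left of the dotted line. Leaving out NTC 1 or NTC 2 moves Klra1 between 0.78 and 0.082, and Klra5 and Klra8 change sign without NTC 2.

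The region before the genes was read because Fli1 and its ETS relatives bind a GGAA core. RefSeq promoter windows (GRCm38.p6, 250 bases before to 50 after a start) were given for all 9 members, 11 windows in all. GGAA, searched on both strands, occurred in each of the 11, between 2 and 5 times, but it also occurred in 96.0% of all 32851 windows. CCGGAA and GGAAGGAA, which both contain GGAA, occurred in 0 of the 11 and in 14.9% and 3.79% of all windows. The longest stretch with GGAA that windows of at least 6 members share, in gene direction, is shown here with 10 bases on each side, minus strand, with the shared GGAAATTTAG in capitals.
Klra5, chr6:129913232-129913261: atcactaggtGGAAATTTAGttccgtcttt
Klra6, chr6:130026991-130027020: atcactcggtGGAAATTTAGttctgtcttt
Klra7, chr6:130233329-130233358: atcactcagtGGAAATTTAGttctactgtt
Klra9, chr6:130193068-130193097: atcactcggtGGAAATTTAGctctgtcttt
Klra4, chr6:130067268-130067297: gttgctcagaGGAAATTTAGttctgccttt
Klra8, chr6:130129896-130129925: atcactcggaGGAAATTTAGttctgccttt

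This stretch was picked from the members' own windows. It was found, on either strand, in windows of 6 of the 9 members, or 7 of their 11 windows. Of all windows 0.0852% held it (28 of 32851, these 7 included). In the windows from which the lines above were taken, it began at position −56 to 25 relative to the annotated start. Klra8 has another window that also holds it, at another distance from its start. The 3 members without the full stretch were Klra1, Klra3 and Klra10. The Klra3 window stops inside such a stretch, after its first 6 letters. The annotated Klra10 start (130281928) lies close to its first coding base (130281922), and its window holds the coding start. Another Klra7 window (130231638 to 130231937), also close to the first coding base (130231617), lacks the stretch too. Where a window lies thus partly sets this count, and the Klra10 window does not show that the gene lacks the stretch. A match is a description of sequence and says nothing of binding.

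Genes around the receptors were read from 4 lists. Of 15 genes of Ly49 signalling 0 were called by edgeR, DESeq2 or limma-voom (median log2 fold change 0.14). At an unadjusted p under 0.05 there was 1, against 8.94% of all tested genes. That 1 was Zap70, the kinase downstream of ITAM adaptors, at 197, 167 and 184 CPM in Fli1 KO 1 to 3, against 165 and 129 CPM in NTC 1 and NTC 2 (log2 fold change 0.31, SE 0.14, edgeR adjusted p = 0.526). Tyrobp, the DAP12 partner of Klra4 and Klra8, was at 308, 233 and 267 CPM in Fli1 KO 1 to 3, against 252 and 206 CPM in NTC 1 and NTC 2 (log2 fold change 0.23, SE 0.15, edgeR adjusted p = 0.697). Ptpn6, the SHP-1 phosphatase that inhibitory Ly49 receptors recruit, was at 114, 95.6 and 114 CPM in Fli1 KO 1 to 3, against 148 and 96.9 CPM in NTC 1 and NTC 2 (log2 fold change −0.18, SE 0.16, edgeR adjusted p = 0.798).

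Of 8 genes of MHC class I and its assembly 0 were called by any of the 3 tools. At an unadjusted p under 0.05 there were 2, against 8.94% of all tested genes. Calr, a chaperone that loads class I molecules, had the smallest p (log2 fold change 0.41, SE 0.17, edgeR adjusted p = 0.452), at 314, 220.3 and 329.9 CPM in Fli1 KO 1 to 3, against 246 and 186 CPM in NTC 1 and NTC 2. The ligand gene H2-K1 was at 1891, 1605 and 1681 CPM in Fli1 KO 1 to 3, against 1529 and 1405 CPM in NTC 1 and NTC 2, and its close paralogue H2-D1 at 1792, 1556 and 1524 CPM in Fli1 KO 1 to 3, against 1471 and 1342 CPM in NTC 1 and NTC 2. They had log2 fold changes of 0.23 and 0.21 (edgeR adjusted p = 0.698 and 0.745). In both, all Fli1 KO libraries lay above both NTC libraries, as in 11.9% of all tested genes, with NTC 2 lowest.

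Of 18 regulators of Ly49 genes and NK maturation, 1 was called higher and 0 lower (4 were called by DESeq2 and 3 by limma-voom). Of all tested genes 0.546% were called by edgeR. At an unadjusted p under 0.05 there were 12 of the 18, 9 of them higher in Fli1 KO, against 8.94% of all tested genes, and the median log2 fold change was 0.30. The called gene was Klf2, a transcription factor of lymphocyte quiescence and traffic, at 52.1, 50.3 and 51.4 CPM in Fli1 KO 1 to 3, against 13.5 and 9.19 CPM in NTC 1 and NTC 2 (log2 fold change 2.16, SE 0.18, edgeR adjusted p = 2.96e-07). Tcf7 encodes TCF-1, which is needed for Ly49A expression, and was at 97.4, 155 and 122 CPM in Fli1 KO 1 to 3, against 192 and 335 CPM in NTC 1 and NTC 2 (log2 fold change −1.07, SE 0.26, edgeR adjusted p = 0.211). The groups did not overlap, NTC 2 was highest, and DESeq2 and limma-voom called it lower. Runx3, needed for Ly49 expression in NK cells, was at 204, 195 and 238 CPM in Fli1 KO 1 to 3, against 165 and 142 CPM in NTC 1 and NTC 2 (log2 fold change 0.47, SE 0.14, edgeR adjusted p = 0.211), again with groups that did not overlap. Over all tested genes, groups did not overlap with Fli1 KO below in 13.7% and with Fli1 KO above in 11.9%.

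Of 17 tested genes listed for the NK gene complex, 1 was called higher and 1 lower, and 5 had an unadjusted p under 0.05, 2 of them higher in Fli1 KO. Over all tested genes the shares were 0.546% called and 8.94% with an unadjusted p under 0.05. Of the listed genes, Klrg1 lies on chromosome 6 but away from the family, at 122270596 to 122282882. Cd69, an early activation marker, was at 176, 135 and 163 CPM in Fli1 KO 1 to 3, against 41.6 and 38.0 CPM in NTC 1 and NTC 2 (log2 fold change 1.99, SE 0.15, edgeR adjusted p = 1.51e-07). Clec2d, the ligand of an inhibitory NKR-P1 receptor, was at 85.3, 78.1 and 83.8 CPM in Fli1 KO 1 to 3, against 134 and 137 CPM in NTC 1 and NTC 2 (log2 fold change −0.72, SE 0.13, edgeR adjusted p = 0.00600). It lost its call when Fli1 KO 1 or Fli1 KO 3 was left out, with an adjusted p of up to 0.192. The median of this list was −0.12, with 5 of 17 positive, against 7 of 9 positive among the Ly49 members and 47.6% of all tested genes.

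Among the genes whose pattern over the 5 libraries lay nearest to that of the summed members were Tfip11, 1810030O07Rik and Hcst, out of 7666 compared. Likeness was the root mean square distance between log2 CPM centred on each gene's mean, and it was 0.0309, 0.0324 and 0.0332 for these. Hcst, which encodes the adaptor DAP10, was at 24.01, 23.0 and 20.6 CPM in Fli1 KO 1 to 3, against 20.8 and 16.7 CPM in NTC 1 and NTC 2. The summed members were at 918, 904 and 833 CPM in Fli1 KO 1 to 3, against 847 and 657 CPM in NTC 1 and NTC 2.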

How the data were processed

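RNA of NK cells from mouse spleen was measured in 5 libraries prepared from 10 ng of total RNA by a probe-capture kit, per the labels. Per the submitters' processing notes, FastQC 0.12.0, Trimmomatic 0.39, STAR 2.7.11 and mm10 were used. The sources used here give neither the counter, its strand setting and annotation nor its treatment of multi-mapped reads. The authors deposited raw whole-number counts for Ensembl genes. All 5 columns were used.

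Symbols were found for 52073 of 56691 IDs, and coordinates, lengths and transcripts came from GENCODE M21 (GRCm38). Genes were kept with filterByExpr (minimum 10 counts), scaled with TMM factors and fitted with edgeR 4.0.16 (robust quasi-likelihood, R 4.3.3). DESeq2 1.42.0 and limma 3.58.1 (voom) were alternatives. CPM values use TMM-scaled library sizes. The 95% intervals use the fit's degrees of freedom, are not adjusted for the number of genes and do not cover reads shared between paralogues. The fit was also run on simulated data, but with changes larger than those of the members, so that run does not show what can be detected among them. Members, lists and tests were chosen with earlier results of these data known. All 9 members, all other Klra genes, called list genes, the smallest p of a list with 0 calls and the 5 nearest profiles were to be named, and 2 of those profiles are not reported here. Tyrobp, Ptpn6, H2-K1, H2-D1, Tcf7 and Runx3 are named as partners, ligands or regulators known from the literature. Background density and uniquely matching windows were added after the data were seen.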

Additional observations from a re-analysis of the deposited data

How the results depend on the processing

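Over 13 alternative fits, 0 members were called in 11, 1 without NTC 1 (Klra1, log2 fold change 0.78) and 2 with the replicate block (Klra3, 0.59, adjusted p = 0.00503; Klra9, 0.44, adjusted p = 0.00897). Leaving out 1 library gave 0 to 1 called members. All tested genes called numbered 295 with no filter, 921 with the replicate block and 49 to 877 with 1 library left out, against 167. Scaling by library size only split them into 92 higher and 71 lower, against 140 and 27. The labels do not say that numbers pair libraries. Deviations from the group means correlated at 0.0686 between the libraries numbered 1 and 0.143 between those numbered 2. Fli1 KO 3 and NTC 1, which differ in number, correlated at 0.0765. With 2 NTC libraries their deviations mirror each other, so these values can neither show nor exclude pairing. Replicate 3 has no partner and the labels give no pairing, so the block is not taken as a design. Where 1 NTC library remains, it is assumed to vary like Fli1 KO.

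Klra6, Klra1, Klra3, Klra4, Klra7, Klra9 and Klra10 kept their sign in all of their alternatives. With 1 library left out, Klra5 ran from −0.30 to 0.071 and Klra8 from −0.14 to 0.47, both turning without NTC 2, and Klra8 turned to −0.0097 with library size alone. The inhibitory sum had a log2 ratio of 0.17 with library size alone and 0.19 to 0.44 with 1 library left out, and the activating sum −0.044 to 0.46, turning without NTC 2. Levels moved for Klra7 (179 CPM per kb by its longest transcript) and, with all counts divided by the kb of unique windows, Klra8 (206) and Klra10 (17.4). With library size alone, 1 member (Klra3) had an unadjusted p under 0.05, against 5, and without NTC 2 there were 0. Of the 18 regulators 11 were called without NTC 1 and 9 with the replicate block, against 1, and Calr was called without NTC 1. The cause of these shifts was not tested. At most 116 counts per library limit Klra5, Klra6 and Klra10, and 2 control libraries limit all.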
